A study of Mus musculus with 24 samples.

Results

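Toll-like receptors are innate immune receptors that recognise microbial molecules and also products of damaged cells. The transcripts of 10 of them (Tlr1 to Tlr9 and Tlr13) were followed after traumatic brain injury (TBI) in mice, in a table of 36333 genes in which each receptor was found by its symbol. Of these, 9 were abundant enough to enter the statistical model of 17267 genes, and Tlr5 was not. Tlr1, Tlr2, Tlr4, Tlr5 and Tlr6 sit at the cell surface, where TLR2 pairs with TLR1 or TLR6 to bind bacterial lipopeptides, TLR4 binds lipopolysaccharide together with MD-2 and CD14, and TLR5 binds flagellin. Tlr3, Tlr7, Tlr8, Tlr9 and Tlr13 act in endosomes and recognise nucleic acids, namely double-stranded RNA, single-stranded RNA, CpG DNA and bacterial ribosomal RNA. All of them signal through the adaptor MyD88 except TLR3, which uses TRIF, whereas TLR4 uses both. In the brain they are mainly known from microglia and macrophages, and TLR3 also from astrocytes.

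The 24 libraries came from 24 male mice killed at 5 dpi (days post injury). TBI was set by controlled cortical impact, a piston strike on the exposed cortex, and sham mice (n = 4) had the skin incision only, without craniotomy. The methods list the sham mice as given vehicle too. The TBI mice formed 4 groups of 5, given a vehicle, either drug alone or both drugs together (PLX3397+Anakinra). PLX3397, an inhibitor of CSF1R, the survival receptor of microglia, was given in chow at 290 mg/kg starting 90 min after injury. Anakinra, a blocker of IL1R1, was injected subcutaneously at 100 mg/kg at 5 min, 24 h, 48 h and 72 h. The labels give C57BL6N mice of 12 to 16 weeks and cortex as the tissue. The methods instead name C57BL/6JRj mice of a narrower age range and a brain quadrant that also held striatum, dorsal hippocampus and thalamus. Among the vehicle mice alone the animal numbers end in the letter B. A difference tied to that letter cannot be told apart from the missing drug or, against sham mice, from the injury.

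Values are labelled TPM, which stands for transcripts scaled by transcript length and to 1000000 per library. The paper's methods add that CLC calls this unit CPM, a name otherwise used for read counts scaled per library without regard to length. Each library summed to 1000000, which holds for both units, so scaling by length could not be checked. Without it, the order of genes, their shares and sums over several genes would also reflect transcript length. Read depth is not given in the sources used here and cannot be recovered from TPM. Differences were tested with limma on log2(TPM + 1), and a call is a Benjamini-Hochberg adjusted p below 0.05 over the 17267 genes. Fold changes on this scale understate the change of low genes, so ratios of mean TPM are given beside them.

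On GRCm38 (RefSeq annotation), Tlr1 (chr5:64924680-64933600) and Tlr6 (chr5:64953092-64970942) lie 19491 bases apart, both on the minus strand. Tlr8 (chrX:167241123-167264329) and Tlr7 (chrX:167303380-167330574) are 39050 bases apart, also on the minus strand. Tlr13 is elsewhere on that chromosome (chrX:106143275-106160493). The others are Tlr2 (chr3:83836272-83841824), Tlr3 (chr8:45395665-45411075), Tlr4 (chr4:66827551-66846581), Tlr5 (chr1:182954752-182976044) and Tlr9 (chr9:106222598-106226876). Tlr1 and Tlr6 share sequence, with 7.89% of the 100-base stretches of Tlr1 and 7.09% of those of Tlr6 found in the other, so a part of their reads could be split between them. None of the other 8 receptors shared a 100-base stretch with another receptor. An antisense gene, Gm45542, covers 381 of the 5207 exon bases of Tlr3, and the reads of the pair cannot be told apart where strand is not used.

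Promoter windows from RefSeq (GRCm38.p6, 250 bases before to 50 after an annotated start) matched 8 of the 10 receptors, with 10 windows in all. They were searched on both strands for the PU.1 core GAGGAA, the interferon response core GAAANNGAA and the NF-kB consensus. PU.1 is the lineage factor of myeloid cells, and NF-kB and the interferon response factors act downstream of the receptors themselves. Of the 10 windows, 4 held the PU.1 core (Tlr1, Tlr8, Tlr9 and Tlr13), against 28.3% of all 32851 promoters. The interferon response core was in 2 (Tlr6 and Tlr8, against 8.56%) and the NF-kB consensus in 2 (Tlr2 and Tlr3, against 8.46%). These are letter matches only. Shown here are Tlr2, which had the highest mean level in the vehicle group, Tlr3, the receptor that moved least with PLX3397 and with PLX3397+Anakinra, and Tlr8, the receptor that was lowest against vehicle after both drugs, with the matched letters in capitals.
Tlr2 (chr3:83841559-83841858, minus strand): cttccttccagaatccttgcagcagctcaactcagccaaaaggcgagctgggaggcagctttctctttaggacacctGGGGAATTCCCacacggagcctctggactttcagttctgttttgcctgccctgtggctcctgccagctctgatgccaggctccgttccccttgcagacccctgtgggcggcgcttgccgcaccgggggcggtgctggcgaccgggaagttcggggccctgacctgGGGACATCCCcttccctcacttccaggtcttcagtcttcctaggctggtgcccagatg
Tlr3 (chr8:45410331-45410630, minus strand): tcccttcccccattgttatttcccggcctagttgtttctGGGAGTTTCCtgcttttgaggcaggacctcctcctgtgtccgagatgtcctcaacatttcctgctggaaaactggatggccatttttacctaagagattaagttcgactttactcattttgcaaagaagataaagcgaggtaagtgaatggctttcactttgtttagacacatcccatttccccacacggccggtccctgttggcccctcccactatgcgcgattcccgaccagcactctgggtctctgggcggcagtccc
Tlr8 (chrX:167264280-167264579, minus strand): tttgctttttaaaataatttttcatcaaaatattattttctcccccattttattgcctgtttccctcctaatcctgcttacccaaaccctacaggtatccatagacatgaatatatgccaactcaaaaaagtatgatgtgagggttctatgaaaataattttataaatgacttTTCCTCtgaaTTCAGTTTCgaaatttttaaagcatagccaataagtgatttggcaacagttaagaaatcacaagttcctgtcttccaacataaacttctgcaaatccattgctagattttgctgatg
The capitals in Tlr2 are NF-kB matches, of which the upstream run holds overlapping matches, and the capitals in Tlr3 are an NF-kB match. For both genes these matches lie inside the gene span given above, as the annotated start of the window is not the outermost one. In Tlr8 the first run is the PU.1 core and the second the interferon response core, both on the opposite strand.

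In sham mice every receptor was low, and Tlr3 led with 5.70 ± 0.516 TPM (SD, n = 4). Next came Tlr9 (2.36 ± 0.309 TPM), Tlr7 (1.96 ± 0.256 TPM), Tlr13 (1.60 ± 0.394 TPM) and Tlr2 (1.18 ± 0.485 TPM), and each of these overlapped its neighbour in the order. Tlr4, Tlr1, Tlr6, Tlr5 and Tlr8 all had means below 1 TPM, the lowest being Tlr8 with 0.132 ± 0.0763 TPM. Tlr3 made up 38.5% ± 1.24 (SD) of the summed receptor TPM in sham mice and 13.4% ± 1.97 in vehicle mice. Such orders and shares assume values scaled by transcript length. After TBI with vehicle the order was Tlr2, Tlr7 and Tlr13, whose ranges overlapped their neighbours, and then Tlr3, which lay below all of these without overlap. The sum over the 10 receptors was 14.1 to 16.3 TPM in sham mice and 77.5 to 98.6 TPM in vehicle mice. Over the 5 groups all 9 receptors in the model differed by limma's F-test, as did 51.9% of all genes tested.

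**Figure D1:**
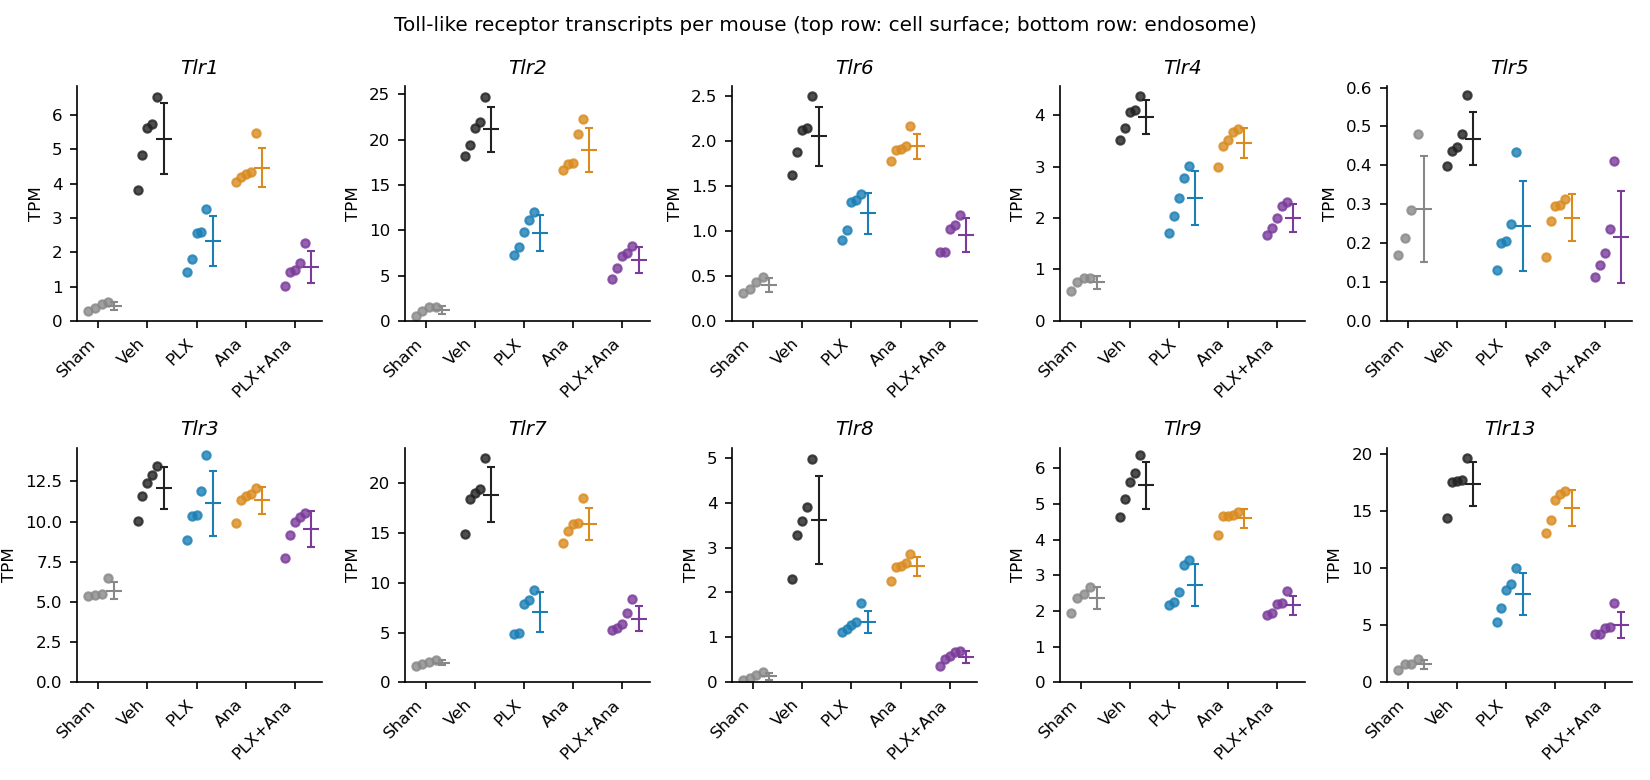
TPM (y axis, linear, each panel with its own scale) of the 10 receptors in each mouse (points) of the sham (n = 4), vehicle (Veh), PLX3397 (PLX), Anakinra (Ana) and PLX3397+Anakinra (PLX+Ana) groups (n = 5 each), with mean ± SD beside the points. For all panels but Tlr5 the vehicle mice lie above every sham mouse, and for all but Tlr3 and Tlr5 the PLX3397 and PLX3397+Anakinra mice lie below every vehicle mouse.

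TBI raised the transcripts of all 9 receptors in the model (vehicle versus sham), and for none of them did the groups overlap. Of all genes tested, 26.6% were called higher in this comparison. The share of all genes without overlap was not computed, here or in the later comparisons. Among the surface receptors Tlr2 moved most. Its TPM was 0.530, 1.10, 1.53 and 1.58 in the sham mice and 18.2, 19.4, 21.3, 22 and 24.7 in the vehicle mice. The lowest vehicle mouse was thus far above the highest sham mouse, and the mean was 17.9 times that of sham (log2 fold change 3.36 ± 0.16 SE, limma adjusted p = 5.82e-15). Its partners rose too, Tlr1 from 0.429 ± 0.123 to 5.31 ± 1.03 TPM (SD, log2 fold change 2.13, limma adjusted p = 1.30e-11) and Tlr6 from 0.399 ± 0.0797 to 2.06 ± 0.330 TPM (log2 fold change 1.12, limma adjusted p = 6.12e-10). Tlr4, the lipopolysaccharide receptor, was at 0.572, 0.761, 0.825 and 0.828 TPM in sham and at 3.51, 3.76, 4.06, 4.10 and 4.38 TPM in vehicle mice, a ratio of 5.31 (log2 fold change 1.51 ± 0.10 SE).

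Of the endosomal receptors, Tlr8 had the largest ratio of mean TPM, and Tlr13 and Tlr7 the largest log2 fold changes. Tlr8 was between 0.0504 and 0.225 TPM in sham mice and at 2.31, 3.27, 3.58, 3.91 and 4.98 TPM in vehicle mice, 27.5 times the sham mean (log2 fold change 2.00 ± 0.12 SE). Tlr13, which recognises bacterial ribosomal RNA, was at 1.10, 1.59, 1.64 and 2.06 TPM in sham and at 14.4, 17.5, 17.6, 17.8 and 19.7 TPM in vehicle mice (ratio 10.9, log2 fold change 2.83 ± 0.14 SE, limma adjusted p = 2.19e-14). Tlr7, a receptor of single-stranded RNA, was at 1.64, 1.88, 2.08 and 2.23 TPM in sham and at 14.9, 18.5, 19, 19.4 and 22.6 TPM in vehicle mice (ratio 9.64, log2 fold change 2.74 ± 0.15 SE). Tlr3 and Tlr9, the receptors that led in sham mice, rose least. Tlr3 was at 5.36, 5.46, 5.51 and 6.46 TPM in sham and at 10.1, 11.6, 12.4, 12.9 and 13.4 TPM in vehicle mice (ratio 2.12, log2 fold change 0.96 ± 0.10 SE). Tlr9, the CpG DNA receptor, went from 2.36 ± 0.309 to 5.52 ± 0.666 TPM (SD, ratio 2.34, log2 fold change 0.95 ± 0.10 SE).

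Markers of several cell types moved with these values. All 8 microglial markers on the list were higher in vehicle than in sham mice, and their summed level was 278 to 303 TPM in sham and 1189 to 1549 TPM in vehicle mice. The summed markers of border macrophages were 10.4 to 14 TPM in sham and 64.0 to 138 TPM in vehicle mice, with 4 of 6 called higher and Lyve1 lower. All 4 monocyte markers in the model, of 5 listed, and 3 of 4 neutrophil markers in the model, of 6 listed, were higher, while the neutrophil-defining Ly6g stayed below 0.16 TPM in every mouse. The summed astrocyte markers were 1199 to 1329 TPM in sham and 1798 to 2103 TPM in vehicle mice, and the summed neuronal markers fell from 5213 to 5550 TPM to 3069 to 3789 TPM. The part of these shifts in the receptor values was not tested. In bulk tissue, fewer cells of a type and less RNA per cell cannot be told apart.

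PLX3397 lowered 8 of the 9 receptors against vehicle, all but Tlr3, while 6.66% of all genes tested were called lower. For each of these 8 the groups did not overlap. Tlr7 fell most on the log2 scale, with 4.86, 4.96, 7.88, 8.25 and 9.24 TPM under PLX3397 where the lowest vehicle mouse had 14.9 TPM. Its mean was 37.3% of the vehicle mean (log2 fold change -1.33 ± 0.14 SE, limma adjusted p = 2.53e-07). Tlr8 was at 1.12, 1.19, 1.28, 1.35 and 1.76 TPM, 37.1% of the vehicle mean (log2 fold change -0.96 ± 0.11 SE), and Tlr13 at 5.29, 6.54, 8.12, 8.65 and 9.99 TPM, 44.4% (log2 fold change -1.10 ± 0.13 SE). Tlr9 was at 2.17, 2.24, 2.52, 3.30 and 3.43 TPM, 49.5% of the vehicle mean (log2 fold change -0.81 ± 0.10 SE), which overlapped the sham range.

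At the surface, Tlr2 was at 7.26, 8.14, 9.85, 11.1 and 12.0 TPM under PLX3397, 45.8% of the vehicle mean (log2 fold change -1.07 ± 0.15 SE, limma adjusted p = 1.32e-05), and Tlr1 at 2.33 ± 0.727 TPM (SD), 43.9%. Tlr4 and Tlr6 kept a larger share, with 2.39 ± 0.531 TPM (60.3%) and 1.20 ± 0.226 TPM (58.2%). Tlr3 stood apart. The PLX3397 mice had 8.86, 10.4, 10.4, 11.9 and 14.2 TPM and spanned the whole vehicle range, the highest of them lying above every vehicle mouse. Its difference was -0.12 ± 0.10 (SE) on the log2 scale, with a 95% confidence interval of -0.32 to 0.08 and a limma adjusted p of 0.525.

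Anakinra gave no call among the 9 receptors, and of all genes tested 0.116% were called in either direction. The estimates were all below vehicle, from -0.34 for Tlr8 to -0.05 for Tlr6 on the log2 scale (median over all genes -0.015). Tlr8 and Tlr9 passed an unadjusted limma p of 0.05, as did 2148 of the 17267 genes tested. Without vehicle mouse J18B the estimate of Tlr6 was 0.0020 in the other direction. Tlr8 was at 2.26, 2.56, 2.59, 2.65 and 2.85 TPM against 2.31, 3.27, 3.58, 3.91 and 4.98 TPM with vehicle, so that the groups overlapped (71.5% of the vehicle mean, 95% confidence interval of the log2 difference -0.58 to -0.10, limma adjusted p = 0.207). Tlr9 was at 4.14, 4.68, 4.68, 4.69 and 4.78 TPM, 83.2% of the vehicle mean (limma adjusted p = 0.362). For Tlr2 the Anakinra mice had 16.7, 17.3, 17.4, 20.7 and 22.3 TPM, and the interval of the log2 difference was -0.46 to 0.15. The interval for Tlr7 was -0.51 to 0.06 and that for Tlr13 was -0.45 to 0.10, which leaves room for a decrease down to the lower end of each.

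PLX3397+Anakinra lowered all 9 receptors against vehicle, while 9.6% of all genes tested were called lower, and for 8 of them the groups did not overlap. Tlr8 was the furthest from vehicle by ratio. It was at 0.363, 0.523, 0.587, 0.665 and 0.692 TPM with both drugs, 15.7% of the vehicle mean (log2 fold change -1.54 ± 0.11 SE, limma adjusted p = 4.75e-10). Tlr13 was at 4.28, 4.28, 4.78, 4.82 and 6.99 TPM, 28.9% (log2 fold change -1.62 ± 0.13 SE), and Tlr7 at 5.28, 5.50, 5.87, 6.98 and 8.41 TPM, 34.0% (log2 fold change -1.43 ± 0.14 SE). Tlr9 was at 1.88, 1.94, 2.21, 2.22 and 2.55 TPM, 39.1% of the vehicle mean (log2 fold change -1.04 ± 0.10 SE).

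Among the surface receptors, Tlr2 was at 4.65, 5.83, 7.14, 7.44 and 8.30 TPM with both drugs, 31.6% of the vehicle mean (log2 fold change -1.54 ± 0.15 SE, limma adjusted p = 1.99e-08). Tlr1 was at 1.57 ± 0.458 TPM (SD), 29.6%, Tlr4 at 2.01 ± 0.275 TPM, 50.6%, and Tlr6 at 0.958 ± 0.188 TPM, 46.6%. Tlr3 moved least again, with 7.75, 9.19, 9.95, 10.3 and 10.5 TPM, which overlapped the vehicle mice (78.9% of the vehicle mean, log2 fold change -0.31 ± 0.10 SE, limma adjusted p = 0.0271). That call was lost without vehicle mouse J17B, J18B or J19B or without PLX3397+Anakinra mouse J09 or J10, with an adjusted p of up to 0.0950.

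**Figure D2:**
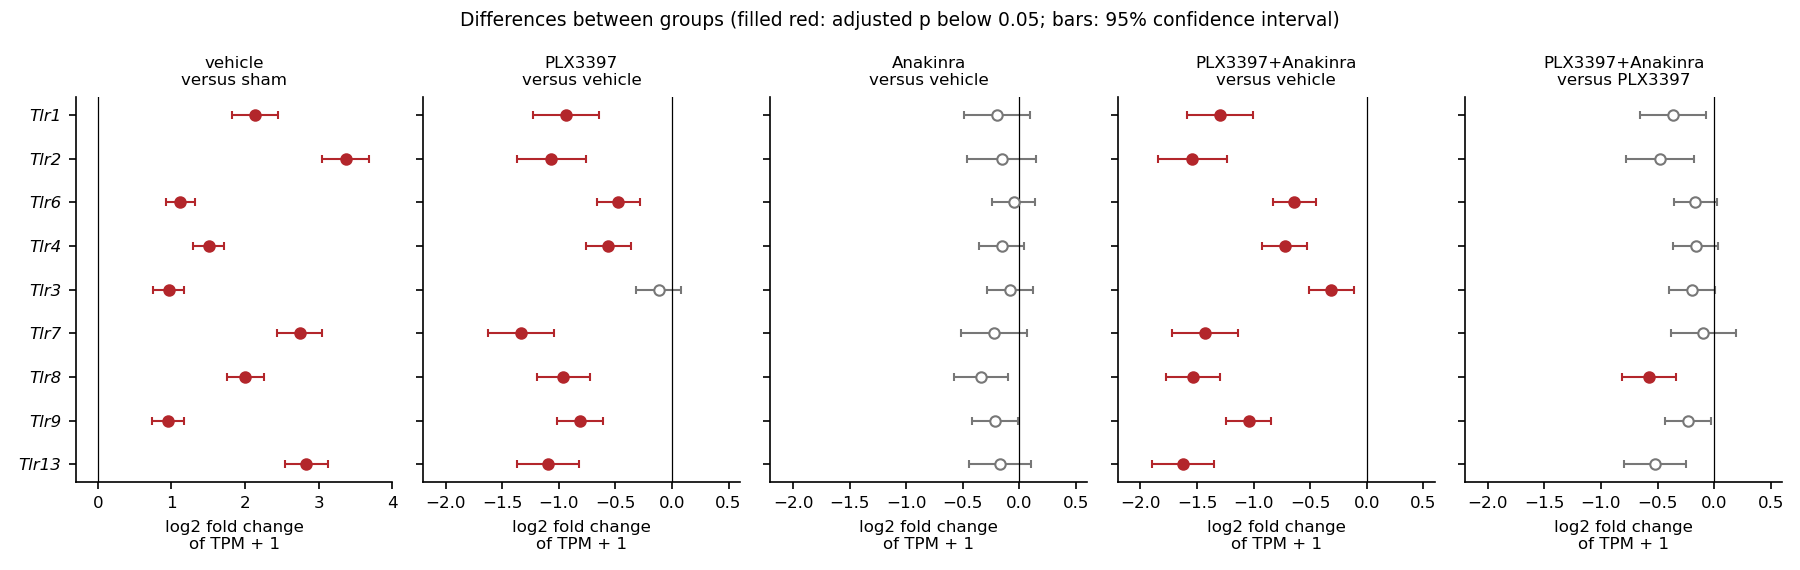
Log2 fold change of TPM + 1 (x axis) with its 95% confidence interval for the 9 receptors in the model (rows) in 5 comparisons (panels, the first with its own axis range), filled in red where the limma adjusted p was below 0.05. All 9 are filled for vehicle versus sham and for PLX3397+Anakinra versus vehicle, 8 for PLX3397, 0 for Anakinra, and Tlr8 alone for PLX3397+Anakinra versus PLX3397.

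The question of what Anakinra added to PLX3397 was addressed by comparing PLX3397+Anakinra with PLX3397. Only Tlr8 was called, with a log2 fold change of -0.58 ± 0.11 (SE), 42.3% of the PLX3397 mean and no overlap (limma adjusted p = 0.0309), while 0.145% of all genes tested were called lower. The PLX3397 mice had 1.12, 1.19, 1.28, 1.35 and 1.76 TPM of it and the PLX3397+Anakinra mice 0.363, 0.523, 0.587, 0.665 and 0.692 TPM. This call depended on the mice and the settings, as it held in 7 of 16 alternatives. It was lost without PLX3397 mouse J02, J19 or J20 or without PLX3397+Anakinra mouse J04, J09, J10 or J17 (adjusted p up to 0.151), without the filter on low genes (0.0624) and with only these 2 groups in the model (0.0699). Next were Tlr13 at 65.2% of the PLX3397 mean (log2 fold change -0.52 ± 0.13 SE, limma adjusted p = 0.137) and Tlr2 at 69.0% (-0.48 ± 0.15 SE, adjusted p = 0.316). All 9 estimates were below 0, and the median over all genes tested was 0.0066. An unadjusted limma p below 0.05 was met by 5 of the 9 receptors and by 1159 of the 17267 genes tested. The interaction, which asks whether the effect of Anakinra differed with and without PLX3397, called none of the 9 receptors, none of which had an unadjusted p below 0.05, and 0% of all genes tested, while 1395 genes had an unadjusted p below 0.05. Its estimates for the receptors ran from -0.35 (Tlr13, 95% confidence interval -0.74 to 0.04) to 0.13 (Tlr7, -0.28 to 0.54).

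Of the 6 border macrophage markers, Pf4 and F13a1 were called lower beside Tlr8 in this comparison. The sum of the 6, most of which these 2 carried, was 30.9 to 60.5 TPM with PLX3397 and 10.4 to 18.7 TPM with PLX3397+Anakinra. The other 4 were not called, Cd163 having 0.305 ± 0.111 and 0.308 ± 0.122 TPM and Lyve1 0.223 ± 0.105 and 0.330 ± 0.212 TPM with PLX3397 and PLX3397+Anakinra. In sham mice the sum was 10.4 to 14 TPM, but its make-up differed. Against sham, PLX3397+Anakinra mice had Pf4 and F13a1 higher and Mrc1, Cd163, Lyve1 and Cbr2 lower. The 8 microglial markers gave no call in PLX3397+Anakinra versus PLX3397, with sums of 464 to 635 TPM and 523 to 798 TPM. The part of either cell type in the Tlr8 value was not tested.

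PLX3397+Anakinra versus Anakinra gave 8 receptors lower, all but Tlr3 (limma adjusted p = 0.120), while 8.1% of all genes tested were called lower. Tlr8 was again lowest by ratio (21.9% of the Anakinra mean) and Tlr13 by log2 fold change (-1.45). The groups did not overlap for any of these 8. The comparisons with vehicle share the same 5 vehicle mice, so they are not independent of each other.

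Against sham the receptors stayed raised under every treatment except for Tlr9. Anakinra mice were higher than sham for all 9 (25.1% of all genes tested were called higher), PLX3397 mice for 8 (22.7%) and PLX3397+Anakinra mice for the same 8 (20.7%). Tlr9 was at 2.73 ± 0.592 TPM with PLX3397 and at 2.16 ± 0.266 TPM with PLX3397+Anakinra, against 2.36 ± 0.309 TPM in sham mice (SD). The intervals of its log2 difference from sham were -0.07 to 0.35 and -0.30 to 0.12 (limma adjusted p = 0.286 and 0.525), and the groups overlapped. Expressed as the share of the rise from sham to vehicle that was left, PLX3397+Anakinra mice kept 12.5% for Tlr8, 21.7% for Tlr13, 23.5% for Tlr1, 26.3% for Tlr7, 27.5% for Tlr2, 33.8% for Tlr6, 39.1% for Tlr4 and 60.1% for Tlr3. For Tlr9 the mean was below that of sham mice (-6.5%). With PLX3397 alone these shares ran from 11.7% for Tlr9 to 85.1% for Tlr3, and with Anakinra from 70.4% for Tlr8 to 93.1% for Tlr6. The order of the levels turned as well, since Tlr3 had the highest mean of the 10 receptors with PLX3397 and with PLX3397+Anakinra, although its range overlapped that of Tlr2 in both.

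By the threshold that the study set for its own comparisons (unadjusted p below 0.05, a ratio above 2 and a difference above 4 TPM), the low receptors dropped out. The unadjusted p used here was that of limma, not of the study's own tests. Vehicle versus sham then held 5 receptors (Tlr1, Tlr2, Tlr3, Tlr7 and Tlr13, against 5.11% of all genes tested). Tlr2, Tlr7 and Tlr13 passed in PLX3397 versus vehicle (0.932% of genes), in PLX3397+Anakinra versus vehicle (1.55%) and in PLX3397+Anakinra versus Anakinra (1.55%). None passed in Anakinra versus vehicle (0.18%) or in PLX3397+Anakinra versus PLX3397 (0.0927%). Against sham, 3 passed with PLX3397 (3.58%), 4 with Anakinra (5.24%) and 2 with PLX3397+Anakinra (2.84%). The study's own lists already name Tlr2, Tlr7 and Tlr13 for PLX3397 and for PLX3397+Anakinra versus vehicle.

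The lower receptor levels under PLX3397 and PLX3397+Anakinra stood beside lower markers of microglia and border macrophages. All 8 microglial markers were lower in both groups, among them P2ry12 (-1.74 and -1.68 on the log2 scale against vehicle) and Csf1r, the target of PLX3397 itself, had -1.35 and -1.53. Mrc1, Cd163, Pf4, Cbr2 and F13a1, 5 of the 6 border macrophage markers, were lower in both. Monocyte and neutrophil markers mostly did not pass. Under PLX3397, 1 of the 4 monocyte markers (Ccr2) and 1 of the 4 neutrophil markers in the model (Csf3r) were lower, the summed neutrophil markers were 20.4 to 58.8 TPM against 20.3 to 59.9 TPM with vehicle, and S100a8 was at 18.9 ± 9.74 against 11.5 ± 6.74 TPM. With PLX3397+Anakinra 2 monocyte markers (Ccr2 and Chil3) and Csf3r were lower. Ly6g was at 0 in all mice of both groups, but also in 4 of 5 vehicle and 3 of 4 sham mice. Red blood cell transcripts moved the same way, with all 4 lower and sums of 1505 to 4395 TPM with vehicle, 605 to 1069 TPM with PLX3397 and 723 to 948 TPM with PLX3397+Anakinra. Astrocyte markers kept sums of 1709 to 1979 TPM and 1704 to 1862 TPM, with 0 and 1 of 5 called. With Anakinra none of the 8 microglial markers was called, and their sum was 1277 to 1449 TPM. Whether these shifts carry the receptor values was not tested.

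Each receptor was therefore also set against the microglial markers, as its TPM per TPM of the 8 markers. The marker sum averaged 1400 TPM with vehicle, 613 TPM with PLX3397, 549 TPM with PLX3397+Anakinra and 293 TPM in sham mice. A gene with unchanged TPM thus lies above the vehicle mean on this scale wherever the marker sum is lower. On that scale Tlr1, Tlr2 and Tlr13 stayed near vehicle under PLX3397, with 101% ± 27.3, 105% ± 13.7 and 101% ± 14.4 of the vehicle mean (SD, n = 5). Tlr3, whose TPM moved least with these drugs, was at 211% ± 33.4 under PLX3397 and 200.4% ± 18.4 under PLX3397+Anakinra. Tlr4 was at 137% ± 22 and 128.5% ± 14.5, and Tlr6 at 134% ± 21.6 and 119% ± 19.8. Tlr7 was at 84.3% ± 15.3 and 86.1% ± 7.98. Under PLX3397+Anakinra, Tlr8 was at 40.1% ± 10.1 and Tlr13 at 73.3% ± 10.5, and both lay below every vehicle mouse (exact permutation p = 0.00794 each, the smallest possible and not adjusted). Tlr8 also lay below every PLX3397 mouse, which had 85.9% ± 19.8. Tlr1 and Tlr2 were close to Tlr13, at 75.5% ± 16.3 and 80.0% ± 11.3, with ranges that overlapped vehicle (exact permutation p = 0.0159 each, not adjusted). Tlr9 was at 112% ± 19.5 under PLX3397 and 99.5% ± 14.4 under PLX3397+Anakinra.

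The same relation was tested with limma on log2 values minus the mean of the markers. Nearly every gene was higher on this scale, 99.1% of genes in PLX3397 and 98.3% in PLX3397+Anakinra versus vehicle (97% and 96.2% with a pseudocount of 0.1 TPM), so a receptor called higher is not a result about that receptor. A receptor called lower had fallen further than the marker mean, which 0.313% of genes did with a pseudocount of 1 TPM and 0.452% with 0.1 TPM in PLX3397+Anakinra versus vehicle. Tlr13 was among them with both pseudocounts (-0.28 and -0.40 relative to the markers). Tlr8 was among them with 0.1 TPM only (-1.08, limma adjusted p = 1.43e-04), since the larger pseudocount shrinks changes of low genes. Under PLX3397 none of the 9 receptors was lower than the markers, and Tlr2, Tlr7 and Tlr13 were called in neither direction. Tlr1 and Tlr8 were called higher with a pseudocount of 1 TPM but not with 0.1 TPM. In PLX3397+Anakinra versus PLX3397, Tlr8 was not called relative to the markers with either pseudocount. It had -0.52 with 1 TPM (limma adjusted p = 0.358) and -1.06 with 0.1 TPM (limma adjusted p = 0.0891).

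**Figure D3:**
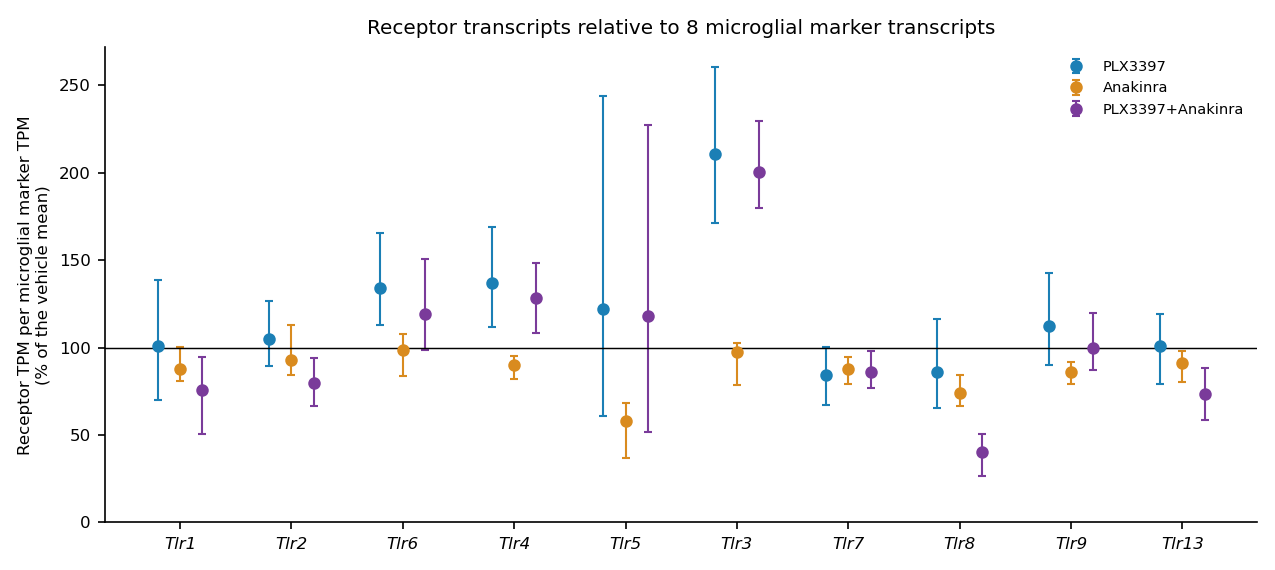
Receptor TPM divided by the summed TPM of 8 microglial markers, in % of the vehicle mean (y axis, line at 100), for the PLX3397, Anakinra and PLX3397+Anakinra groups (n = 5 each, points are means and bars span the lowest to the highest mouse). Tlr3 lies well above the line in both PLX3397 groups, where a gene with unchanged TPM also would, since the marker sum is lower there. Tlr8 with PLX3397+Anakinra lies lowest at 40.1%, and the bars of Tlr5 are wide because its values are low.

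Tlr5, the flagellin receptor, was below the filter of a mean of 0.5 TPM and was tested on its own in 9 comparisons, with an exact permutation test (two-sided). The vehicle mice had 0.399, 0.436, 0.448, 0.481 and 0.580 TPM, the sham mice 0.170, 0.214, 0.286 and 0.480 TPM and the Anakinra mice 0.165, 0.257, 0.296, 0.297 and 0.314 TPM. The Anakinra mice all lay below the vehicle mice (exact permutation p = 0.00794, the smallest that 5 against 5 can give, 0.0476 adjusted over the 9 comparisons). PLX3397 mice had 0.130, 0.200, 0.206, 0.249 and 0.435 TPM and PLX3397+Anakinra mice 0.112, 0.145, 0.174, 0.237 and 0.412 TPM, and in each group the highest mouse was within the vehicle range (exact permutation p = 0.0159 each, 0.0476 adjusted). Vehicle and sham mice overlapped (exact permutation p = 0.0635, 0.143 adjusted). In limma without the filter, over 28322 genes, the calls differed, as Anakinra versus vehicle did not pass (log2 fold change -0.21, adjusted p = 0.289) and vehicle versus sham did (0.19, adjusted p = 0.0496). PLX3397 and PLX3397+Anakinra versus vehicle passed there too (limma adjusted p = 0.0473 and 0.0135). No value of Tlr5 exceeded 0.580 TPM, and the number of reads behind it is unknown. Of the mouse receptors outside the 10, Tlr11 never exceeded 0.122 TPM, and Tlr12 rose from 0.592 ± 0.197 to 1.24 ± 0.378 TPM with TBI (limma adjusted p = 0.00715) and was not called with any drug against vehicle.

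The genes that serve the receptors were described by 8 lists of 58 genes, of which 54 were in the model. With TBI 37 of the 54 were higher and 8 lower, where 26.6% of all genes tested were higher and 27.7% lower. PLX3397 lowered 15 and raised 1 (6.66% and 3.23% of all genes), Anakinra changed 0 (9 had an unadjusted p below 0.05 in limma), and PLX3397+Anakinra lowered 21 and raised 3 (9.6% and 7.88%). PLX3397+Anakinra versus PLX3397 gave 0 calls among the 54 (12 at an unadjusted p below 0.05), and so did the interaction (9). Of all 17267 genes, 2148 had such a p in Anakinra versus vehicle, 1159 in PLX3397+Anakinra versus PLX3397 and 1395 in the interaction.

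Co-receptors moved most, with 6 of 6 higher after TBI (median log2 fold change 2.99, against -0.01 over all genes). Cd14, which hands lipopolysaccharide to TLR4, was at 3.58 ± 0.727 TPM in sham and 24.3 ± 2.66 TPM in vehicle mice (log2 fold change 2.47) and fell with PLX3397 (-0.74) and PLX3397+Anakinra (-0.81). Cd36, a scavenger receptor that works with TLR2, went from 0.785 ± 0.229 to 30.0 ± 10.1 TPM and was at 15.6 ± 4.14 TPM with PLX3397 and 8.23 ± 1.91 TPM with PLX3397+Anakinra. Cd180 and Ly86, which form a TLR4-like receptor complex, rose by 3.82 and 3.52 on the log2 scale and had -1.41 and -1.56 with PLX3397+Anakinra against vehicle. Ly96, encoding MD-2, rose with TBI (0.83) and fell with PLX3397+Anakinra (-0.69, limma adjusted p = 0.0255), and its value with PLX3397 was -0.47 (adjusted p = 0.182). Of the chaperones, Unc93b1, which carries the endosomal receptors out of the endoplasmic reticulum, was at 16.4 ± 0.811 TPM in sham, 102 ± 14.1 TPM in vehicle, 47.9 ± 9.34 TPM in PLX3397 and 37.2 ± 5.11 TPM in PLX3397+Anakinra mice, whereas Hsp90b1, the chaperone gp96, had 0.41 with TBI and -0.20 with PLX3397 on the log2 scale. Cnpy3 fell and Cnpy4 rose with TBI (-0.10 and 0.49), and both had log2 differences from vehicle of at most 0.09 with any drug.

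Adaptors rose in 5 of 6 cases with TBI. Myd88 rose by 1.19 on the log2 scale, was not called with PLX3397 (-0.33, limma adjusted p = 0.0633) and fell with PLX3397+Anakinra (-0.39, adjusted p = 0.0164). Pik3ap1 and Ticam2 had larger values, 2.77 and 1.74 with TBI and -1.47 and -1.16 with PLX3397+Anakinra against vehicle. Tirap, which brings MyD88 to the surface receptors, rose by 0.83 and had -0.27 with PLX3397+Anakinra. Ticam1 and Sarm1 are named after their values were seen. Ticam1, which encodes the TLR3 adaptor TRIF, rose by 0.70 and had -0.32 with PLX3397+Anakinra, and Sarm1, known mainly from neurons, was the only adaptor lower after TBI (-0.48). Among 16 kinases and ubiquitin ligases the median change with TBI was 0.07, with 7 higher and 4 lower, the latter close to the share of lower genes among all genes. Irak4, the kinase nearest to MyD88, rose by 1.62 and had -0.55 and -0.56 under PLX3397 and PLX3397+Anakinra. Ikbke, Tab2 and Irak2 rose by 1.51, 0.36 and 0.29 with TBI and were lower with PLX3397+Anakinra (-0.60, -0.18 and -0.26).

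All 5 transcription factors were higher after TBI. Irf5, which acts below MyD88, rose by 2.00 and had -0.92 with PLX3397 and -1.25 with PLX3397+Anakinra. Irf7, an interferon-induced factor, rose by 2.44, was not called with PLX3397 (-0.34) or Anakinra (0.58) and fell with PLX3397+Anakinra (-0.73, limma adjusted p = 0.00123). The NF-kB subunits Nfkb1 and Rela rose by 0.60 and 0.40, and with PLX3397+Anakinra Nfkb1 was lower (-0.39) while Rela was not called (-0.07, adjusted p = 0.430). Of 6 inhibitors, 5 were in the model, and Tnfaip3, which removes ubiquitin chains downstream of the receptors, rose with TBI (0.72) and was lower with PLX3397 (-0.32) and with PLX3397+Anakinra (-0.44). Nfkbia and Irak3 rose with TBI (0.70 and 0.57) and were not called with PLX3397+Anakinra (-0.16 and -0.20). Tollip went the other way, lower after TBI (-0.31) and higher with PLX3397+Anakinra (0.10).

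Of 7 ligand genes 5 rose with TBI, among them S100a8 (2.54) and S100a9 (1.63), which are also neutrophil markers, Bgn (2.04) and Tnc (1.57), and none was called lower with any drug. Bgn, a matrix proteoglycan, was higher with PLX3397+Anakinra (from 90.7 ± 47.4 to 164 ± 41.2 TPM, limma adjusted p = 0.0154). Its log2 differences with PLX3397 (0.89, adjusted p = 0.0505) and Anakinra (1.11, adjusted p = 0.0993) did not pass. Of 8 target genes 5 were in the model. Cxcl10, a chemokine, rose from 0.514 ± 0.361 to 28.1 ± 4.35 TPM with TBI, was at 28.9 ± 7.90 TPM with PLX3397 and fell to 19.1 ± 2.87 TPM with PLX3397+Anakinra (limma adjusted p = 0.0242). Tnf followed at low levels, with 1.20 ± 0.568 TPM with vehicle and 0.455 ± 0.237 TPM with PLX3397+Anakinra (limma adjusted p = 0.0220). Ccl5, another chemokine, rose with TBI (2.26) and had -0.31 with PLX3397+Anakinra (adjusted p = 0.335). Ptgs2, the inducible cyclooxygenase, fell with TBI (-0.53) and was higher with PLX3397 (0.39) and PLX3397+Anakinra (0.43). Il1r1, the target of Anakinra, rose with TBI (0.94) and was not called with any drug against vehicle. Kit and Flt3, kinases also inhibited by PLX3397, were lower after TBI (-0.25 and -0.52) and not called with the drugs.

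**Figure D4:**
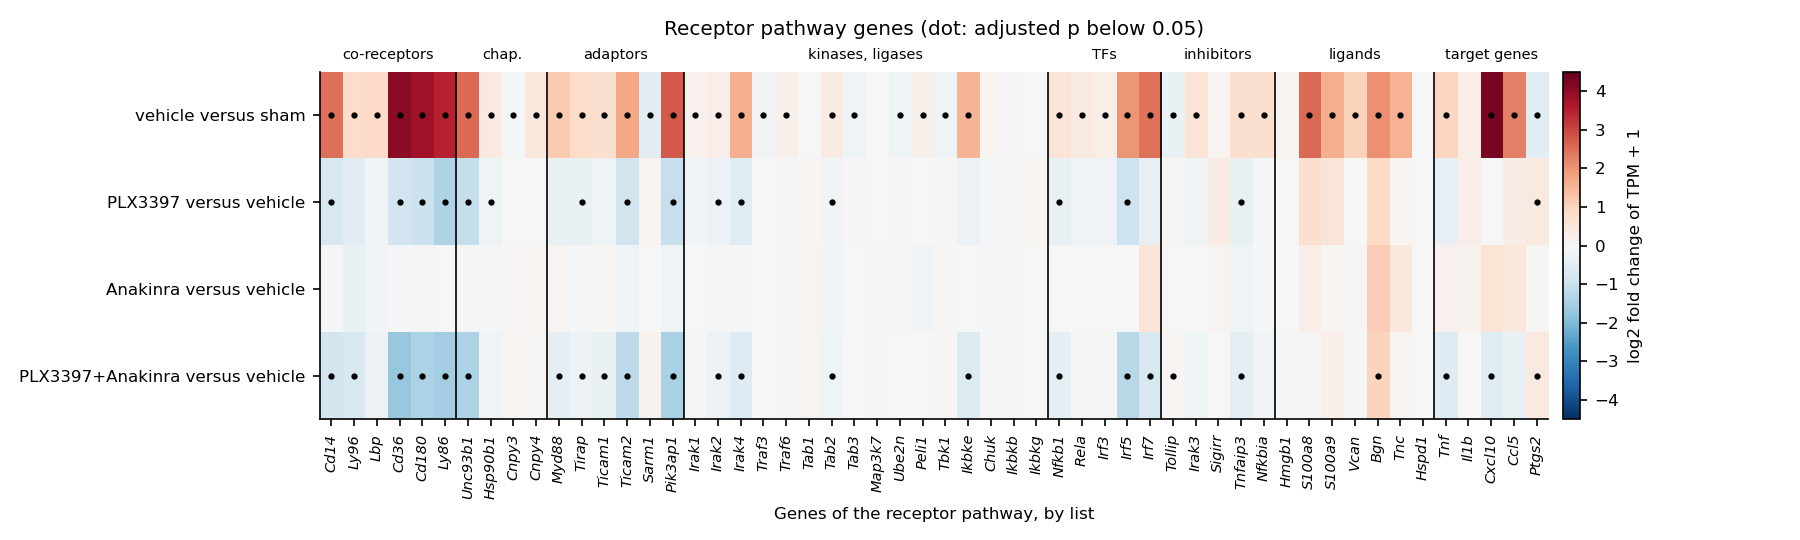
Log2 fold change of TPM + 1 (colour) of the 54 pathway genes in the model (columns, by list) in 4 comparisons (rows), with a dot where the limma adjusted p was below 0.05. The row of vehicle versus sham holds 45 dots, PLX3397 versus vehicle 16, Anakinra versus vehicle 0 and PLX3397+Anakinra versus vehicle 24.

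The genes whose pattern over the 24 libraries was most like a receptor were found by the root mean square difference of z-scores. Tlr13 was nearest to Ctss (0.128), Tlr2 to Tcn2 (0.137), Tlr6 to Ifngr1 (0.164), Tlr4 to Msr1 (0.164) and Tlr1 to Itm2b (0.183). Fyb was among the 3 nearest genes of Tlr1, Tlr7 and Tlr13. Tlr8 was nearest to Ms4a6c (0.236) and Cnr2. Tlr9 and Tlr3 had no gene as close, Tlr9 being nearest to Tgfbr1 (0.323). For Tlr3 the nearest row carried a symbol that the file holds as a calendar date, followed by Ednrb (0.295) and Psat1. These distances reflect the differences between the groups as well as those between mice within a group.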

How the data were processed

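RNA of a brain quadrant was sequenced from 24 mice as paired-end poly(A) libraries. The values were deposited as TPM by the authors, who mapped the reads to GRCm38 and quantified genes in CLC Genomics Workbench. The methods state that CLC names this unit CPM, so scaling by transcript length is not certain. Whether strand was used is not given in the sources used here. Each library summed to 1000000 TPM and had 22160 to 23249 genes above 0. TPM keeps no read depth, so no counting error can be given. The other deposited tables, one of which holds the authors' test values, were not used.

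The 17267 of 36333 genes whose mean over the libraries reached 0.5 TPM were fitted with limma (version 3.58.1, R 4.3.3) on log2(TPM + 1), with all 24 libraries in one model and a trend in the variance prior. P-values were adjusted by Benjamini-Hochberg over all genes, and a gene was called at an adjusted p below 0.05. Each mouse is 1 replicate. Tlr5, below the filter, was compared by an exact permutation test. Microglial markers were averaged on the log2 scale and subtracted from each gene for the relative comparison. The scripts were tested on simulated data.

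The members and lists were chosen with earlier results of these data known. Named genes are the 10 receptors, the drug targets Csf1r, Kit, Flt3 and Il1r1, up to 4 called genes per pathway list by the size of their log2 fold change in vehicle versus sham or PLX3397+Anakinra versus vehicle, Cd14, Ly96, Unc93b1 and Myd88, and genes among the 3 nearest to each receptor, some of which are not reported here. Alternatives were a pseudocount of 0.1 TPM, no filter or a mean of at least 1 TPM, rescaling by median ratios, no variance trend, only the compared groups, the study's threshold, a block for shared animal numbers and leaving out each mouse. The pseudocount of 0.1 TPM in the relative comparison and the same 6 libraries without the block were chosen after seeing the data.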

Additional observations from a re-analysis of the deposited data

Results flagged for a closer look

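In 4 of the 50 groups of mice tested (10 receptors in 5 groups), 1 mouse lay far from the others by Dixon's criterion, which chance alone meets in about 1 of 20 groups. For Tlr1 with Anakinra, mouse J05 had 5.47 TPM where the other mice had 4.05 to 4.33 TPM. For Tlr3 in sham mice, J15 had 6.46 TPM against 5.36 to 5.51 TPM. For Tlr9 with Anakinra, J06 had 4.14 TPM against 4.68 to 4.78 TPM. For Tlr13 with PLX3397+Anakinra, J03 had 6.99 TPM against 4.28 to 4.82 TPM, and without J03 the comparison of PLX3397+Anakinra with PLX3397 called Tlr13 lower (log2 fold change -0.63, limma adjusted p = 0.0335).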

How the results depend on the processing

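Over the alternatives, 1459 of 1494 recomputed receptor values kept their direction and their side of the threshold, 16 lost and 2 gained a call, and 17 changed sign, none of which was called at first. Leaving out each mouse left the number of receptors called unchanged in every comparison but PLX3397+Anakinra versus vehicle (8 to 9, where Tlr3 was the one lost) and PLX3397+Anakinra versus PLX3397 (0 to 2). In the latter, Tlr8 had an adjusted p of 0.0336 to 0.151 without single mice, and Tlr13 was called as well without PLX3397 mouse J01 (adjusted p = 0.0228) or PLX3397+Anakinra mouse J03 (0.0335). The count there was 0 with no filter, with only the compared groups and with the study's threshold. With that threshold the counts were 5 for vehicle versus sham, 3 each for PLX3397 and PLX3397+Anakinra versus vehicle, 3 for PLX3397+Anakinra versus Anakinra, and 3, 4 and 2 for PLX3397, Anakinra and PLX3397+Anakinra versus sham, since it asks for a minimum difference in TPM. Pathway genes called ranged from 0 to 1 for Anakinra versus vehicle (1 without J19B) and from 0 to 2 for PLX3397+Anakinra versus PLX3397 (2 without J01). Of the sign changes, 1 came with the block given last (Tlr3) and 16 from leaving out single mice, namely Tlr4 (-0.087 to 0.055) and Tlr9 (-0.069 to 0.052) in the interaction, Tlr6 with Anakinra (-0.10 to 0.0020) and Tlr7 in PLX3397+Anakinra versus PLX3397 (-0.20 to 0.0014). The cause was not tested. Animal numbers J01, J19 and J20 occur in both the vehicle and the PLX3397 group. Deviations of same-numbered mice from their group means had correlations of 0.173, -0.134 and -0.0656. Correlations of differently numbered mice were not computed, so these values cannot decide whether the mice share more than a number. Number J17 likewise occurs in the vehicle and the PLX3397+Anakinra group, and this overlap was neither checked nor blocked. With J01, J19 and J20 as a block, 6 of 9 receptors were called in PLX3397 versus vehicle over 6 libraries, as many as in the same libraries without it. Tlr4 and Tlr6 lost their call, Tlr3 had 0.025, and 703 genes were called against 747. Depth could not be used to set limits, since TPM does not hold it.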
